A study of Mus musculus with 6 samples.

Results

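The genes examined here mostly encode enzymes that add methyl groups to, or remove them from, lysines and arginines of histones, with the other core subunits of PRC2, an antisense RNA (*Kdm6bos*) and a pseudogene (*Kdm4dl*) among them. They were chosen by symbol, with earlier results of these data known. Taken were the genes named *Kmt*, *Kdm*, *Setd*, *Smyd* or *Prmt* with a number, *Setdb* or *Suv39h*, without the Y-linked *Kdm5d*. Added to them were *Nsd1*, *Nsd2*, *Nsd3*, *Ezh1*, *Ezh2*, *Eed*, *Suz12*, *Ehmt1*, *Ehmt2*, *Dot1l*, *Ash1l*, *Jmjd6* and *Phf8*. This gave 65 of the 55421 genes in the table. Of these, 62 passed a filter on low values, a mean of at least 10 normalized read counts over the 6 libraries, as did 17640 genes in all.

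RNA-seq had been performed on splenic B cells of 3 CD21-cre mice (WT) and 3 hnRNPL F/F CD21-cre mice (hnRNPL KO). The cells were activated ex vivo for 24 h with IL-4 at 5 ng/ml and LPS at 5 μg/ml, a combination that drives division and switching to IgG1. hnRNPL is an RNA-binding protein that recognises CA-rich RNA and acts on splicing and mRNA stability. Both groups carried the CD21-cre transgene, which becomes active as B cells mature in the spleen, and a reporter that turns GFP on after recombination, so that GFP+ cells were sorted in both, with 1 library per mouse.

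Histone lysine methyltransferases mostly carry a SET domain and use S-adenosylmethionine as the methyl donor. Lysine demethylases are either amine oxidases or JmjC oxygenases that need iron, oxygen and 2-oxoglutarate. In activated B cells the H3K27 methyltransferase EZH2 is known for its part in proliferation and in the germinal centre, and the H3K36 methyltransferase NSD2 for its part in class switching.

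The libraries held between 40395186 and 75180749 reads on genes, and 24009 to 26283 genes were detected in each. *Hnrnpl* itself had 24371, 25580 and 24174 normalized counts in WT and 2178, 1519 and 1297 in hnRNPL KO. The B cell markers *Pax5* (130876 to 204678), *Ms4a1* (38987 to 66279), *Cd22* (21704 to 34388), *Cd79b* (15004 to 25322) and *Cd79a* (17288 to 24298) were high in every library. Of these, *Cd22* (-0.55) and *Ms4a1* (-0.40) fell at an adjusted p under 0.1 by limma. Of the plasmablast markers *Jchain* was low and fell (-2.31), and *Irf4*, *Xbp1*, *Prdm1* and *Sdc1* did not pass. Markers of T, NK and erythroid cells did not exceed 24.2 normalized counts except for *Lck* (615.4 to 1006), and the 8 myeloid markers summed to 605 to 741 in WT and 1662 to 1808 in hnRNPL KO. That gap was nearly all *Adgre1* (235.6 to 315.1 in WT, 1217 to 1369 in hnRNPL KO), with *Lyz2*, *Csf1r*, *Mpo* and *Itgam* under 50 and *Siglech* and *S100a8* at 0 throughout, and the part of these markers in the other results was not tested. *Xist* was present in WT library 3 (98507) and hnRNPL KO library 2 (98219) and at 2.32 to 7.21 elsewhere, so each group mixed libraries with and without it.

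Most of the 62 members differed little between the genotypes. Differences were tested with limma on log2(normalized count + 1) over all 17640 genes, with p adjusted after Benjamini and Hochberg. A gene was called where the adjusted p was under 0.1 and the change at least 1.5-fold. By this rule 5 members (8.06%) were called, against 11.4% of all tested genes. *Kdm5b*, *Ezh1* and *Kdm4d* rose, or 4.84% of members against 7.28% of all genes called higher. Of these, *Kdm4d* passed the filter only through the hnRNPL KO libraries, with a mean of 7.61 in WT and 37.7 in hnRNPL KO. It is included in the counts that follow. *Kdm2b* and *Nsd2* fell, or 3.23% against 4.08% called lower. Without WT library 1 or hnRNPL KO library 3 only *Kdm2b*, *Kdm5b* and *Kdm4d* were called, and without WT library 2 *Ezh1* was not. The median log2 fold change of the members was 0.04, within a range of -0.72 to 2.38, and that of all tested genes was -0.03. A change of less than 0.5 on the log2 scale was found for 91.9% of members and 73.6% of all tested genes. The members were the more abundant genes, with a median WT level of 4267 normalized counts against 507, and among genes with a mean of at least 500 a change under 0.5 was found for 92.9% of members and 87.5% of all genes. At that level there were 4 called of 56 members, and 345 called higher and 363 called lower of 8949 genes.

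At an adjusted p under 0.1 whatever the fold, 14 members (22.6%) passed by limma, against 18.0% of all genes. Of these, 10 were higher (16.1% against 10.0%) and 4 lower (6.45% against 7.97%). For 30 members (48.4%) the 3 values of one genotype all lay outside those of the other, 19 of them higher and 11 lower in hnRNPL KO, against 34.0% of all tested genes. The count of 10 fell to 6 without WT library 1, 4 without WT library 2, 3 without WT library 3, 5 without hnRNPL KO library 1 and 6 without either of hnRNPL KO libraries 2 and 3.

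**Figure D1:**
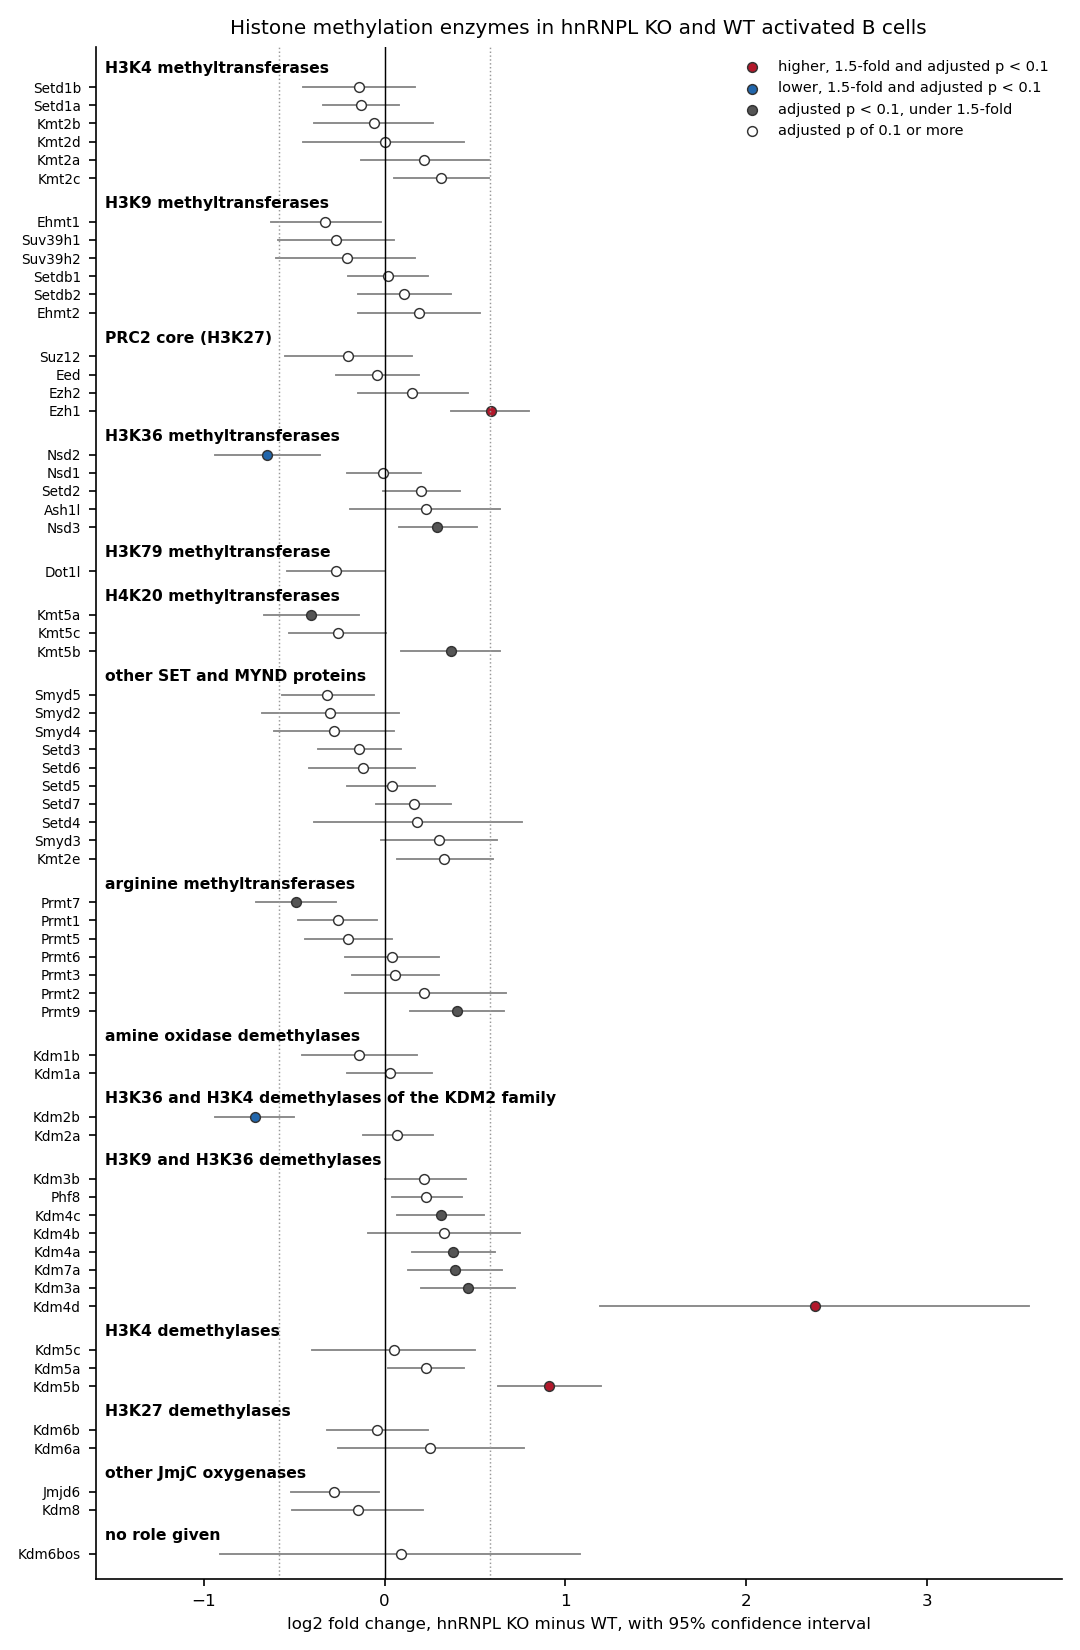
Log2 fold change of the 62 members past the filter, hnRNPL KO minus WT (horizontal axis), with its 95% confidence interval from limma, grouped by role. Dotted lines mark 1.5-fold in each direction. Most points lie between them, with *Kdm2b* and *Nsd2* beyond the left line, and *Ezh1*, at the right line itself, *Kdm5b* and *Kdm4d* to the right. The 8 genes listed as H3K9 and H3K36 demethylases, without the KDM2 family, all lie to the right of 0.

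Levels were compared between genes per kilobase of exon. *Suz12*, the scaffold subunit of PRC2, had the highest level in WT with 3154 ± 679 normalized counts per kb (SD, n = 3 mice). *Prmt1*, the main arginine methyltransferase of mammalian cells, followed with 2069 ± 77.9 per kb, *Eed* with 1978 ± 122 and *Prmt5* with 1928 ± 115. *Prmt1* and *Eed* differed by less than the larger of their SDs, as did *Eed* and *Prmt5*. *Kmt2e*, a SET protein without known catalytic activity, had 1577 ± 27.5 per kb. The lowest level was that of *Kdm4d* with 2.66 ± 1.73 per kb, and *Kdm5b* was also low with 88 ± 12.5 per kb. Both genes called lower were better expressed, *Kdm2b* with 782 ± 37.9 and *Nsd2* with 588 ± 71.8 per kb.

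**Figure D2:**
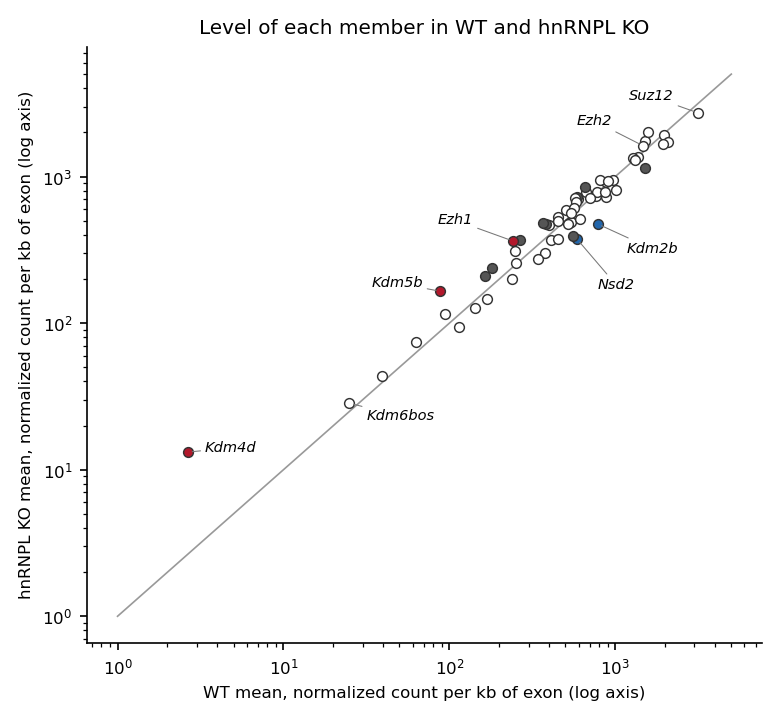
Mean normalized count per kb of exon in WT (horizontal) and hnRNPL KO (vertical), both on log axes, with 1 point per member and the line of equal levels. Red and blue points are members called higher and lower, dark grey points have an adjusted p under 0.1 with a smaller change, and open points did not pass. *Kdm4d* moves from 2.66 to 13.2 per kb and *Kdm5b* from 88 to 165, while most members lie on or near the line.

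Among the 25 lysine methyltransferases and PRC2 core subunits, 11 had a higher and 14 a lower mean in hnRNPL KO, and the median log2 fold change was -0.01. The 6 H3K4 methyltransferases, the MLL and SET1 enzymes that mark promoters and enhancers, had changes of -0.14 to 0.31, and none passed an adjusted p under 0.1. The most abundant of them, *Kmt2d*, had 19403, 30139 and 29078 normalized counts in WT and 21146, 30991 and 25790 in hnRNPL KO. Library 1 was the lowest of its genotype in both groups and the groups overlapped (log2 fold change -0.00, SE 0.196). The 6 H3K9 methyltransferases, which write the heterochromatin mark, had changes of -0.33 to 0.19 and none passed either. *Setdb1*, the best expressed of these at 772 ± 35.3 per kb in WT, changed by 0.02 (SE 0.097).

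PRC2 places H3K27 methylation through EZH2 or its paralogue EZH1 and needs EED and SUZ12. *Ezh1* (chr11:101191115-101226463 in GRCm38) had 1748, 1782 and 1864 normalized counts in WT and 2578, 2685 and 2834 in hnRNPL KO. All 3 hnRNPL KO values stood above all 3 WT values, with little spread within either group. The log2 fold change was 0.59 (SE 0.0956, adjusted p = 0.00749 from limma), which lies at the 1.5-fold threshold. It dropped under that threshold without WT library 1 (0.56), WT library 2 (0.58) or hnRNPL KO library 3 (0.55).

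*Ezh2* had 11568, 9125 and 8674 normalized counts in WT and 12086, 10633 and 9834 in hnRNPL KO. The groups overlapped and the change was 0.15 (95% interval -0.15 to 0.46, adjusted p = 0.492). *Eed* (-0.04, adjusted p = 0.836) and *Suz12* (-0.20, adjusted p = 0.444) did not pass either. Per kb, the ratio of *Ezh1* to *Ezh2* was 0.136, 0.175 and 0.193 in WT and 0.191, 0.227 and 0.259 in hnRNPL KO. One hnRNPL KO library thus lay just within the WT range, and the exact permutation test gave p = 0.2, where 3 against 3 libraries cannot give less than 0.1.

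The 250 bases before the start of *Ezh1* and *Ezh2* are shown because *Ezh1* was called and *Ezh2* was not. They were taken from RefSeq on GRCm38.p6, whose promoter table held 48 of the 62 members, at chr11:101226464-101226713 and chr6:47595031-47595280, both on the minus strand. Capitals mark CCAAT on either strand, a short element of many promoters.
Ezh1: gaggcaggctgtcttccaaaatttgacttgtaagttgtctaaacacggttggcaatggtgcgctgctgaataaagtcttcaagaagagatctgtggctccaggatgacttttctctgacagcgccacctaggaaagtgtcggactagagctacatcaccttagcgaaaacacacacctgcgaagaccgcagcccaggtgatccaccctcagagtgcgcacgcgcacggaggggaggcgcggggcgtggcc
Ezh2: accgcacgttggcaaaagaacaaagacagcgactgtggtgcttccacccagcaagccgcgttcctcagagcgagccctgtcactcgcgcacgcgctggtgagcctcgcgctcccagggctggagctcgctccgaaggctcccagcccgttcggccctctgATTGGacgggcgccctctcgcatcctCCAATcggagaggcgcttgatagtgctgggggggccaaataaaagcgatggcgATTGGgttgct
*Ezh2* held 3 matches and *Ezh1* 0 in this window, and 33.8% of all 32851 promoters of this length held at least 1. A match here is a description of the letters.

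NSD1, NSD2, NSD3, SETD2 and ASH1L methylate H3K36. *Nsd2* (chr5:33820725-33897975) had 11212, 9553 and 8866 normalized counts in WT and 7150, 6104 and 5613 in hnRNPL KO. The highest hnRNPL KO value was below the lowest WT value. Its log2 fold change was -0.65 (SE 0.127, adjusted p = 0.0156), a 1.57-fold lower level. It was under 1.5-fold without WT library 1 (-0.56) or hnRNPL KO library 3 (-0.57).

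The other 4 H3K36 enzymes had changes of -0.01 to 0.29. *Nsd3* had 9510, 9857 and 9920 normalized counts in WT and 11413, 11379 and 13095 in hnRNPL KO, a small rise without overlap (0.29, SE 0.0943, adjusted p = 0.086 by limma). *Setd2*, which alone trimethylates H3K36 in most cells, was the best expressed of the group at 1505 ± 62.3 per kb in WT. It had 16914, 15594 and 16061 normalized counts in WT and 18053, 17806 and 20129 in hnRNPL KO, again without overlap, but the change of 0.20 did not pass (SE 0.0941, adjusted p = 0.203). *Nsd1* changed by -0.01 and *Ash1l* by 0.23 with overlapping groups. The counts are per gene, so that isoforms with and without the catalytic SET domain, which *Nsd2* is known to make, are summed.

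H4K20 methylation is written by KMT5A as a single methyl group and extended by KMT5B and KMT5C. *Kmt5a* had 9175, 7635 and 7249 normalized counts in WT and 6362, 6209 and 5515 in hnRNPL KO, with every hnRNPL KO value lower (-0.41, SE 0.116, adjusted p = 0.0582 by limma). *Kmt5b* moved the other way, with 2140, 2660 and 2451 in WT and 2814, 3119 and 3406 in hnRNPL KO (0.37, SE 0.12, adjusted p = 0.0892). *Kmt5c* was lower without overlap, but its change of -0.26 did not pass (adjusted p = 0.192). *Dot1l*, the single H3K79 methyltransferase, had a change of -0.27 (adjusted p = 0.175) with overlapping groups.

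The remaining SET and MYND proteins act on other substrates or have no well-established one, such as the actin histidine methyltransferase SETD3. Of the 10 tested, 5 had a higher and 5 a lower mean, with changes of -0.32 (*Smyd5*) to 0.33 (*Kmt2e*), and none passed an adjusted p under 0.1 by limma. *Smyd1*, known from muscle, was under the filter at 1.53 to 5.48 normalized counts.

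Of the 7 genes tested with a *Prmt* symbol, *Prmt7* fell and *Prmt9* rose. *Carm1*, also named PRMT4, was outside the symbol rule and was called lower among the partners (-0.59, adjusted p = 0.02 by limma). *Prmt7*, the enzyme that only monomethylates arginine, had 3536, 3515 and 3155 normalized counts in WT and 2473, 2457 and 2310 in hnRNPL KO. The groups were far apart relative to their spread, and the log2 fold change was -0.49 (SE 0.0966, adjusted p = 0.0156 by limma), under 1.5-fold. *Prmt9*, which methylates the splicing factor SF3B2, had 1070, 1021 and 970.4 in WT and 1410, 1233 and 1409 in hnRNPL KO (0.40, SE 0.113, adjusted p = 0.0547). *Prmt1* (-0.26, adjusted p = 0.12) and *Prmt5* (-0.20, adjusted p = 0.251), the main asymmetric and symmetric dimethylating enzymes, did not pass. *Prmt8*, known from brain, had 0 reads in every library, which at this depth allows up to 3 reads per library.

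Among the 17 members listed as lysine demethylases and tested, 14 had a higher and 3 a lower mean in hnRNPL KO, with a median log2 fold change of 0.23. Of all 17640 tested genes, 8336 had a higher mean. Without WT library 1, and also in the 4 libraries without *Xist*, 12 demethylases were higher and 5 lower. At an adjusted p under 0.1 by limma, 6 rose and 1 fell, against 10.0% and 7.97% of all tested genes. The difference between demethylases and methyltransferases was not tested.

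*Kdm2b* (chr5:122870665-122989823), which binds CpG islands and recruits a variant PRC1 complex there, fell. It had 8968, 8182 and 8362 normalized counts in WT and 5366, 5366 and 4742 in hnRNPL KO. Both groups were tight and wide apart, and the log2 fold change was -0.72 (SE 0.0954, adjusted p = 0.00312 from limma), a 1.65-fold lower level. It remained called whichever library was left out, at -0.75 to -0.66. Its paralogue *Kdm2a*, with a level of 875 ± 23.1 per kb in WT, had 12275, 12745 and 12920 in WT and 12965, 13330 and 13658 in hnRNPL KO, a change of 0.07 (adjusted p = 0.605). RefSeq lists starts of *Kdm2b* in 2 clusters that lie far apart within the gene, and the table does not separate the transcripts that begin at each.

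*Kdm5b* (chr1:134560171-134635285), a demethylase of H3K4 trimethylation, rose. It had 1241, 1652 and 1480 normalized counts in WT and 2752, 2632 and 2795 in hnRNPL KO. All hnRNPL KO values lay above the WT values, with less spread among themselves. The log2 fold change was 0.91 (SE 0.124, adjusted p = 0.00355 from limma), a 1.88-fold higher level, and it remained called whichever library was left out, at 0.80 to 1.01. Its paralogues did not pass. *Kdm5a* changed by 0.23 without overlap (adjusted p = 0.149), and the better expressed *Kdm5c* (1285 ± 241 per kb in WT) by 0.05.

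**Figure D3:**
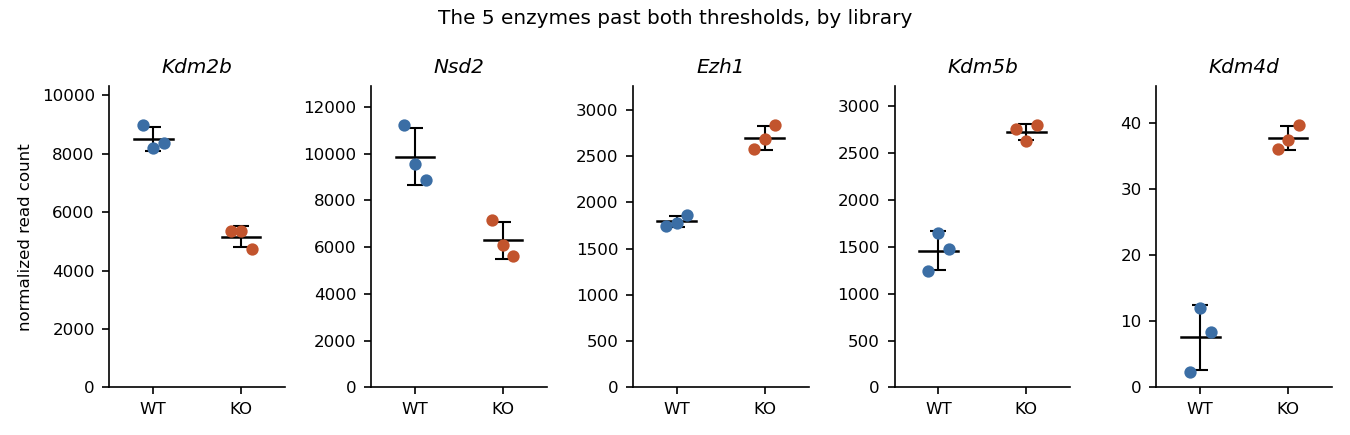
Normalized read counts of the 5 called members in each library, with the mean and SD (n = 3 mice per genotype) and each axis starting at 0. *Kdm2b* and *Nsd2* are lower in hnRNPL KO, and *Ezh1*, *Kdm5b* and *Kdm4d* are higher, without overlap in any of the 5. *Kdm4d* is on a far lower scale, with at most 39.7 normalized counts.

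The 8 members listed as demethylases of H3K9, and in part of H3K36, came from the KDM3 and KDM4 families, with *Kdm7a* and *Phf8*. All 8 had higher means in hnRNPL KO. This list leaves out the KDM2 family, which also acts on H3K36 and of which *Kdm2b* fell, and it was drawn up with earlier results known. It also leaves out *Jmjd1c* (0.05, adjusted p = 0.811 by limma) of the KDM3 family and *Phf2* (-0.07, adjusted p = 0.647), a relative of *Phf8*. Both had overlapping groups and were examined with the partners. For 7 of the 8 the groups did not overlap, against 34.0% of all tested genes in either direction. An adjusted p under 0.1 was reached by 5, against 10.0% of all genes higher, and the median log2 fold change was 0.35. These counts include *Kdm4d*, which passed the filter only through hnRNPL KO. With a filter of a mean of at least 50, which leaves it out, all 7 were higher, 4 passed and the median was 0.33. The direction of all 8 was the same with scaling to equal totals and with quantile normalization, where their medians were 0.41 and 0.41. The summed level was 2780, 2916 and 2808 per kb in WT and 3578, 3562 and 3558 in hnRNPL KO, or 2835 ± 71.5 and 3566 ± 10.4 (SD, n = 3 mice each). The 5 that passed became 3 without WT library 1, 2 without WT library 2, 1 without WT library 3, 1 without hnRNPL KO library 1 and 3 without hnRNPL KO library 2 or 3.

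*Kdm3a*, which removes mono- and dimethylation from H3K9, had 2467, 2067 and 2056 normalized counts in WT and 3104, 2748 and 3205 in hnRNPL KO (0.46, SE 0.116, adjusted p = 0.0376 by limma). *Kdm4a*, which acts on trimethylated H3K9 and H3K36 and was the best expressed of these at 658 ± 48.5 per kb in WT, had 3528, 4089 and 3803 in WT and 5113, 5144 and 4564 in hnRNPL KO (0.38, SE 0.101, adjusted p = 0.0475). *Kdm4c*, its close paralogue, had 2271, 2235 and 2199 in WT and 2635, 2610 and 3113 in hnRNPL KO (0.31, SE 0.105, adjusted p = 0.0949). These 3 genes thus rose by less than 1.5-fold, each without overlap.

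*Kdm7a*, a demethylase of H3K9 and H3K27 dimethylation, had 4004, 3587 and 3548 in WT and 5301, 4231 and 5078 in hnRNPL KO (0.39, SE 0.114, adjusted p = 0.0643 by limma). *Kdm4b* was the 1 member whose groups overlapped (0.33, adjusted p = 0.29), and *Kdm3b* (0.22, adjusted p = 0.19) and *Phf8* (0.23, adjusted p = 0.122) did not pass.

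*Kdm4d* (chr9:14462548-14500482), an H3K9 demethylase best known from testis, was close to the limit of detection. It had 2.32, 12.1 and 8.41 normalized counts in WT and 36.1, 37.4 and 39.7 in hnRNPL KO. The hnRNPL KO libraries agreed closely and lay well above the scattered WT values. The log2 fold change was 2.38 with a wide 95% interval of 1.19 to 3.57 (adjusted p = 0.0234 from limma). The neighbouring *Kdm4dl*, an unprocessed pseudogene that shares sequence with it, had 0 to 1.8 normalized counts and was under the filter. How reads were divided between them is uncertain.

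**Figure D4:**
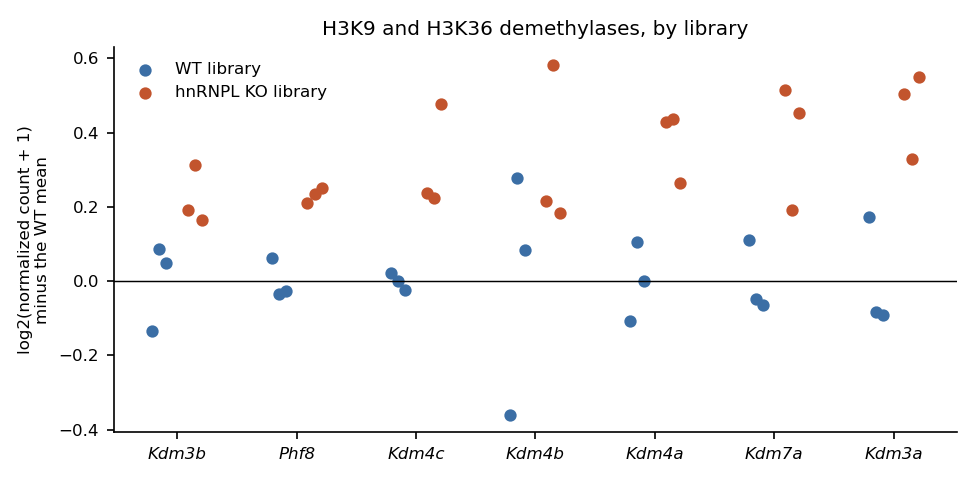
Log2(normalized count + 1) minus the WT mean for 7 of the 8 demethylases listed from the KDM3 and KDM4 families with *Kdm7a* and *Phf8*. Each library has 1 point, and *Kdm4d*, at 2.38, is off this scale. Points of hnRNPL KO lie above those of WT for each gene but *Kdm4b*, where the groups overlap. The differences of the means run from 0.22 for *Kdm3b* to 0.46 for *Kdm3a*.

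The amine oxidase demethylases changed little. *Kdm1a*, known as LSD1, had a level of 704 ± 65.8 per kb in WT and changed by 0.03 (95% interval -0.21 to 0.26), and *Kdm1b* by -0.14. *Jmjd6* (453 ± 9.15 per kb in WT) was lower without overlap at -0.28 (adjusted p = 0.136), and *Kdm8* changed by -0.15.

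H3K27 methylation is removed by the JmjC enzymes KDM6A, known as UTX, and KDM6B. *Kdm6b* had 5854, 7370 and 7040 normalized counts in WT and 6018, 7286 and 6360 in hnRNPL KO. The values of the groups lay within each other (-0.04, 95% interval -0.32 to 0.24), and the antisense *Kdm6bos* had 12.1 to 34.3 normalized counts with a change of 0.09. *Kdm6a* had 4999, 4301 and 7539 in WT and 5397, 8423 and 6060 in hnRNPL KO, a change of 0.25 with a wide interval of -0.26 to 0.77. Isoforms of *Kdm6a* that differ in an alternative exon are summed in these counts.

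*Kdm6a* and *Kdm5c* are X-linked and known to escape X inactivation in mouse. *Kdm5c* had 7809, 8525 and 11074 normalized counts in WT and 8275, 12634 and 7858 in hnRNPL KO. For both genes the highest library of each genotype was the one with *Xist*. *Kdm6a* was higher by 0.70 (log2) in the library with *Xist* than in those without it in WT and by 0.56 in hnRNPL KO, and *Kdm5c* by 0.44 and 0.65. With *Xist* as a covariate across all genes, the adjusted p of its slope was 0.937 for both.

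The difference between genotypes was small on either side of this divide. For *Kdm6a* it was 0.16 between the libraries with *Xist* and 0.30 among those without, and for *Kdm5c* it was 0.19 and -0.02, with 1 library per genotype in the first case. The X-linked *Phf8* did not follow *Xist*, with -0.04 in WT and 0.01 in hnRNPL KO, and *Suv39h1* had -0.22 and 0.20. *Uty* and *Kdm5d*, the Y-linked homologues of *Kdm6a* and *Kdm5c*, were at 1.01 to 2.02 in the libraries with *Xist* and far higher in the others, and reads shared between homologues are uncertain.

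**Figure D5:**
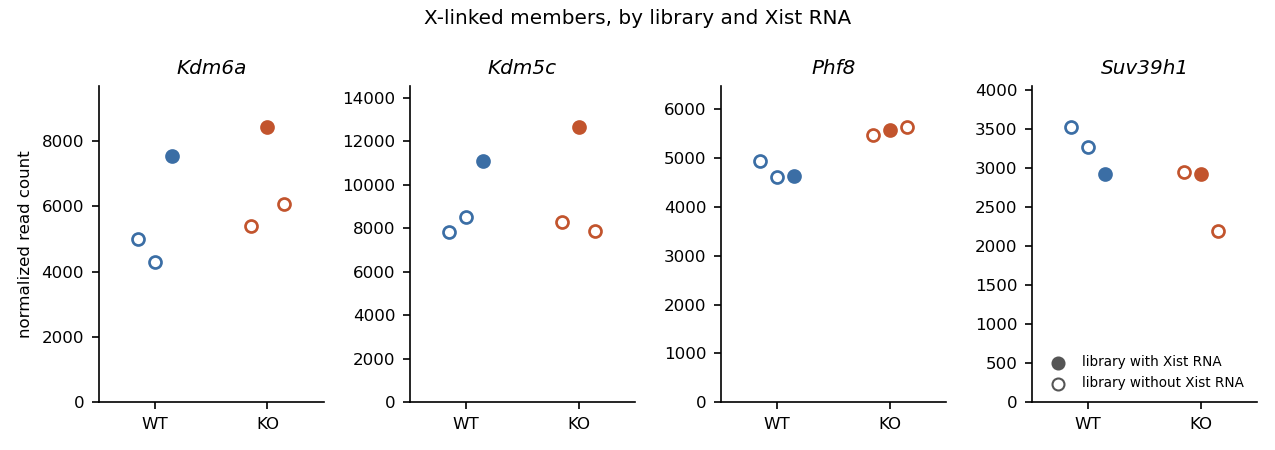
Normalized read counts of the 4 X-linked members in each library, filled where the library holds *Xist* RNA and open where it does not, with each axis starting at 0. The filled point is the highest of its genotype for *Kdm6a* (7539 and 8423) and *Kdm5c* (11074 and 12634), and not for *Phf8* and *Suv39h1*.

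The letters ACACACA, a short form of the CA repeat that hnRNPL binds, were searched on the coding strand of the longest protein-coding transcript of each gene in GENCODE on GRCm38, counting overlapping matches. They stood in 28 of 61 members (45.9%) and in 32.2% of 11473 tested protein-coding genes, whose transcripts were shorter (median 3069 bases against 4663 for the members). Among the 14 members with an adjusted p under 0.1 by limma, 4 held them (28.6%), each with at least 1 match in the 3′ UTR. These were *Kdm2b* and *Kmt5a*, which fell, and *Kdm5b* and *Kmt5b*, which rose. *Kdm6b*, which did not pass, held 11 matches. The 30 bases with the most matches are shown for these genes, with the matches in capitals (the last A of *Kmt5a* belongs to a match that runs past the window), because they put members of either direction and of no change side by side.
Kdm2b: ggagtggaccACACACACAccatctgcagc
Kmt5a: tACACACACACAcgcACACACACACACAtA
Kdm5b: gtaaaaacaaaACACACActcacttcatgt
Kmt5b: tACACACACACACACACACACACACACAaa
Kdm6b: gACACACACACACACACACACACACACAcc
They lie at chr5:122871295-122871324 (minus strand) in *Kdm2b*, chr5:124460778-124460807 (plus) in *Kmt5a*, chr1:134631371-134631400 (plus) in *Kdm5b*, chr19:3817356-3817385 (plus) in *Kmt5b* and chr11:69398780-69398809 (minus) in *Kdm6b*. Over the whole transcript *Kdm2b* held 2 matches, *Kdm5b* 1, *Kmt5a* 9 and *Kmt5b* 12, of which 1 lay in the coding sequence. *Ezh1*, *Nsd2*, *Kdm4d* and *Prmt7* held 0. Binding was not measured here, and introns were not searched.

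Partners of these enzymes were examined as 88 further genes in 9 lists, of which 83 passed the filter. Of these, 2 were called higher and 6 lower by limma, against 7.28% and 4.08% of all tested genes. At an adjusted p under 0.1, 6 were higher and 11 lower, against 10.0% and 7.97%, and the median log2 fold change was -0.09. *Btg2*, an antiproliferative gene that binds PRMT1, rose by 0.74 (adjusted p = 0.0198), and *Jmjd8* by 0.63 (adjusted p = 0.0143). Those called lower were *Epop*, a PRC2-associated protein (-1.29, adjusted p = 0.0123), *Hspbap1* (-0.81, adjusted p = 0.0325), *Mat2a* (-0.77), *Ahcyl2* (-0.66, adjusted p = 0.0165), *Psip1*, which tethers MLL complexes to chromatin (-0.64, adjusted p = 0.0339), and *Carm1*, the arginine methyltransferase also named PRMT4 (-0.59, adjusted p = 0.02).

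The calls among the partners are given by list, where 11.4% of all tested genes were called in either direction. A lower mean was found for 9304 of the 17640. The counts by list were not tested against these shares. Of 9 PRC2 accessory subunits tested, 1 was called, *Epop*, with 595.3, 866.3 and 702.8 normalized counts in WT and 289.4, 392.8 and 215.2 in hnRNPL KO. Of 11 MLL and SET1 subunits, 8 had a lower mean and 1 was called, *Psip1*, with 10470, 8114 and 7419 in WT and 6475, 5305 and 4875 in hnRNPL KO. No gene was called among 11 partners and readers of H3K9 methylation, 11 LSD1-CoREST subunits and 4 DOT1L partners, where *Zfp644* (0.33, adjusted p = 0.0777) and *Hdac1* (0.36, adjusted p = 0.0869) rose and *Mphosph8* (-0.32, adjusted p = 0.0717) and *Mllt6* (-0.30, adjusted p = 0.0948) fell by less than 1.5-fold. Of 7 PRMT cofactors, *Btg2* was the 1 call, of 10 further JmjC proteins *Jmjd8* and *Hspbap1*, and of 12 further protein methyltransferases *Carm1*.

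Of 8 genes listed for the supply of the methyl donor S-adenosylmethionine or the clearing of its product, 7 had a lower mean, with a median of -0.25. A lower mean was found for 9304 of all 17640 tested genes. The list includes *Ahcyl1* (-0.04) and *Ahcyl2* (-0.66), relatives of *Ahcy* whose part in this supply or clearing was not examined. Of the 8, 3 fell at an adjusted p under 0.1 by limma (*Mat2a*, *Ahcyl2* and *Ahcy*), against 7.97% of all genes. *Mat2a*, which makes S-adenosylmethionine in most tissues, had 20474, 21908 and 19644 normalized counts in WT and 12166, 13288 and 10993 in hnRNPL KO. The groups were wide apart, with a log2 fold change of -0.77 (SE 0.103, adjusted p = 0.00339 by limma). *Ahcy*, which hydrolyses S-adenosylhomocysteine, had 19504, 18460 and 17556 in WT and 14929, 13553 and 10939 in hnRNPL KO (-0.50, SE 0.126, adjusted p = 0.0371). *Mat2b*, the regulatory partner of MAT2A, was the 1 gene with a higher mean (0.22, adjusted p = 0.199).

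In bulk RNA a lower level of a transcript per cell and a smaller share of cells that express it cannot be told apart.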

How the data were processed

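Splenic B cells of 3 WT and 3 hnRNPL KO mice were compared. The authors trimmed reads with fastp 0.23.1, aligned them to mm10 with STAR 2.7.9a, counted them per gene with featureCounts and divided the counts by DESeq2 1.38.2 size factors. The values as deposited are thus a signal per gene, counts scaled by library. The authors also deposited 6 columns that were not used, their mean and their DESeq2 log2 fold change, its error, the test statistic (a score), the p-value and the adjusted p-value.

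The test was limma 3.58.1 (R 4.3.3) with a mean-variance trend on log2(normalized count + 1), over 17640 genes with a mean of at least 10. Calls needed a Benjamini-Hochberg adjusted p under 0.1 and 1.5-fold. In every library 100% of values were whole multiples of 1 read within 0.1 read. The reads of 5 libraries were tested with edgeR 4.0.16 and DESeq2 1.42.0, which called 1072 and 1194 genes higher and 707 and 743 lower. In hnRNPL KO library 2 a read is worth close to 1 and its reads were not used. Exon lengths came from GENCODE, matched by identifier for 17615 genes. The test was tried on simulated data. The fold is on the log2(value + 1) scale, which understates changes of low genes.

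The members, roles, partner lists and tests were chosen with earlier results of these data known. Named were members called or with an adjusted p under 0.1, a set of H3K27 and H3K36 enzymes with *Kdm5c*, the best expressed member of each role, members under the filter and called partners. Others were named after their values were seen.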

Additional observations from a re-analysis of the deposited data

How the results depend on the processing

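The same 5 members were called by edgeR and by DESeq2 on 5 libraries, with the replicate number as a block, and with equal totals. *Kdm2b* and *Kdm5b* were called under every alternative but the stricter thresholds of an adjusted p under 0.05 and 2-fold. *Kdm4d* was under a filter of a mean of at least 50. *Ezh1* also fell under 1.5-fold with *Xist* as a covariate (0.58) and with a pseudocount of 5 (0.58), and *Nsd2* with quantile normalization (-0.53).

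At the stricter thresholds 610 genes were higher and 216 lower, with 1 and 0 members and 0 and 1 partners. In the 4 libraries without *Xist*, an alternative added after the data were seen, 450 and 310 genes, 1 and 2 members and 0 and 3 partners were called, and 1 and 2 members had an adjusted p under 0.1. With 1 library left out, between 850 and 1124 genes were called higher and between 483 and 695 lower, for members 2 to 3 and 1 to 2, and for partners 1 to 3 and 4 to 7, with the lowest counts of all genes higher and partners higher, 850 and 1, without WT library 3. The call of *Kdm4d* was lost in those 4 libraries (adjusted p = 0.123), as was that of *Ezh1* (0.107). Quantile normalization left 1 member called lower, as did leaving out WT library 1 or hnRNPL KO library 3.

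The count of 10 members higher at an adjusted p under 0.1 was 6 by edgeR, 5 without the mean-variance trend and 17 with quantile normalization, and ranged from 3 to 6 with 1 library left out, where the count of 4 lower ranged from 3 to 5. Samples with the same replicate number deviated together for 2 of 3 pairs (correlations 0.429, 0.32 and 0.0663), and not every library correlated best with its own number, so the numbers were not taken as pairs. With the replicate block 18 members were higher and 12 lower at an adjusted p under 0.1. The share of all tested genes with such a p was not counted under these alternatives. These counts thus show how the number depends on the processing, and are not a result about the members.

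The sign turned for genes with a change near 0, and the cause was not tested. In the 4 libraries without *Xist*, *Kdm1a* was at -0.02 and *Setdb1* at -0.03, and the signs of other members near 0 were not followed singly. *Eed* was at 0.01 by DESeq2, 0.02 with equal totals and 0.09 with quantile normalization, and ranged from -0.11 to 0.01 with 1 library left out. *Kdm5c* was at -0.02 without *Xist*, -0.17 by DESeq2 and -0.19 by edgeR, and ranged from -0.16 to 0.20. *Kdm6b* was at 0.01 with equal totals and 0.07 with quantile normalization, and ranged from -0.14 to 0.03.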
